A study of Mus musculus with 24 samples.

Results

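The RNA of immune cells and of stromal cells from resting muscle was compared gene by gene, with secreted factors read from each side against their receptors on the other. The comparison used 3 libraries of uninjured CD45+ cells and 3 libraries of uninjured mesenchymal stromal cells (MSC), which were chosen by their labels and make up 6 of the 24 libraries in the series. All groups came from hindlimb muscle of C57BL/6 mice aged 8 weeks, with no transgene or deletion named in the labels, and each library held 1000 cells that had been sorted in a pair of successive rounds. The CD45+ cells were gated on CD45 and are a mixture of all hematopoietic cells in the tissue, while the MSC had the surface phenotype CD45-CD31-Sca1+PDGFRa+. Uninjured CD31+ endothelial cells and uninjured muscle stem cells (MuSC, CD45-CD31-Sca1-Vcam1+), with 3 libraries each, served to place the differences among the populations of the tissue. CD45+ cells and MSC taken 1 day after an injection of cardiotoxin, a venom toxin that kills muscle fibers, were read for the same pairs of genes. The 3 libraries per group are labelled as biological replicates, and nothing says whether equal numbers share an animal, so the p-values rest on the spread among these libraries.

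Stromal cells of muscle that carry PDGFRa, also known as fibro-adipogenic progenitors, deposit the interstitial matrix and secrete growth factors, chemokines and their extracellular antagonists. Tissue macrophages depend on signals through the receptor CSF1R, and other leukocytes use chemokine, complement and interleukin receptors to enter tissue and to stay there. In the other direction, cytokines and growth factors of immune cells act on fibroblasts through receptors for interleukin 1, oncostatin M, PDGF and TGF-beta. Transcripts show where a ligand or a receptor is encoded, and do not show that the protein was made, secreted or bound.

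Levels are given as CPM, a gene's count divided by the TMM-scaled library size in megacounts, as mean ± SD over 3 libraries or library by library in the order of the replicate numbers. Fold changes are on the log2 scale, CD45+ minus MSC, so that positive values are higher in CD45+ cells. A difference was called at an adjusted p below 0.05 in edgeR's quasi-likelihood test with Benjamini-Hochberg adjustment over 16263 genes. Where a group had no count in any library, the fold is a lower bound against 3 counts over the group's 3 libraries, which equal 0.269 CPM in CD45+ cells and 0.201 CPM in MSC. Where a group had 1 to 3 counts in all, the ratio is given with an interval that covers counting error only. Totals were 3383910 to 4478200 counts in the CD45+ libraries and 5128360 to 7649840 in the MSC libraries. Since a population was sampled in bulk, fewer cells of a type and less RNA per cell cannot be told apart.

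The sorted populations matched their labels. Ptprc, which encodes CD45, stood at 702, 777 and 872 CPM in the CD45+ libraries and at 1.34, 0.224 and 0 CPM in the MSC libraries. Pdgfra, a gate of the MSC, stood at 1.42, 0.578 and 0.859 CPM in CD45+ cells and at 607, 526 and 572 CPM in MSC. Both genes were used to sort the cells, as were Ly6a (Sca1), Pecam1 (CD31) and Vcam1, and their differences are a description. All 14 genes of a pan-leukocyte list, Ptprc included, were higher in CD45+ cells, as were 28.4% of all tested genes. All 16 genes of a stromal list, Pdgfra included, were higher in MSC, as were 28.4% of all tested genes. The leukocyte list summed to 19.8 to 40.5 CPM in MSC, 0.122% to 0.251% of its mean in CD45+ cells. The stromal list summed to 551 to 659.7 CPM in CD45+ cells, 0.269% to 0.322% of its mean in MSC, and Gsn, the actin-binding protein gelsolin, made up 518, 408 and 457 CPM of those sums.

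The populations differed over a large part of the transcriptome. Of 16263 genes tested, 4617 were higher in CD45+ cells (28.4%) and 4622 were higher in MSC (28.4%), together 56.8%, while 7024 were not called. Among called genes, 2248 were over 4-fold higher in CD45+ cells and 2576 over 4-fold higher in MSC, and 876 and 855 passed a 64-fold difference. The median log2 fold change over all tested genes was 0.04, with quartiles of -1.05 and 0.98. With an injured MSC library as the reference of the TMM scaling the median was 0.25, so small differences toward MSC are given below with the settings that lost them. The 3 CD45+ and 3 MSC values did not overlap for 30.8% of genes with CD45+ cells above and for 31.1% with MSC above. Of the genes without a count in any MSC library, 313 reached 5 CPM in CD45+ cells, and of those without a count in any CD45+ library, 182 reached 5 CPM in MSC.

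Among the 12 largest folds on the immune side, C1qc, a chain of the complement recognition protein C1q, stood at 2973, 2726 and 1319 CPM in CD45+ cells and had no count in MSC, a fold of at least 11843. Tyrobp, the ITAM adaptor DAP12, was at least 8127-fold higher and the Fc receptor-like gene Fcrls at least 6072-fold higher. Il1b, the cytokine interleukin 1 beta, and S100a8 and S100a9, the subunits of the neutrophil protein calprotectin, were at least 4239-fold, 3267-fold and 3433-fold higher, again with no count in MSC. Cd74, the invariant chain of MHC class II, had 11171 ± 1075 CPM in CD45+ cells and 0.578 ± 0.501 CPM in MSC (log2 fold change 14.13, adjusted p = 1.69e-07). The other genes of the 12 were Laptm5, Cyth4, Ccl9, Nfam1 and Napsa, and 18.9% of the exon bases of Napsa overlap another gene, so that its reads cannot be assigned without strand.

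On the stromal side, the heparan sulfate proteoglycans Sdc2 and Gpc3 had 434, 440.2 and 532 CPM and 466, 369.9 and 363 CPM in the MSC libraries and no count in CD45+ cells, folds of at least 1732 and 1512. The proprotein convertases Pcsk6 and Pcsk5, which cleave growth factor precursors, were at least 1635-fold and 810.5-fold higher in MSC. Cd248, the stromal surface protein endosialin, stood at 3008, 2816 and 2351 CPM in MSC with 3 counts in all CD45+ libraries together. Mmp3, a matrix metalloprotease, was the least even of the 12 at 277, 313 and 87.5 CPM, and Fst, the activin antagonist follistatin, stood at 136, 242 and 211 CPM. Pdgfrl, Prss23, Dpep1, Srpx2 and Loxl2 completed the 12, with 22.9% of the exon bases of Prss23 overlapping another gene.

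**Figure D1:**
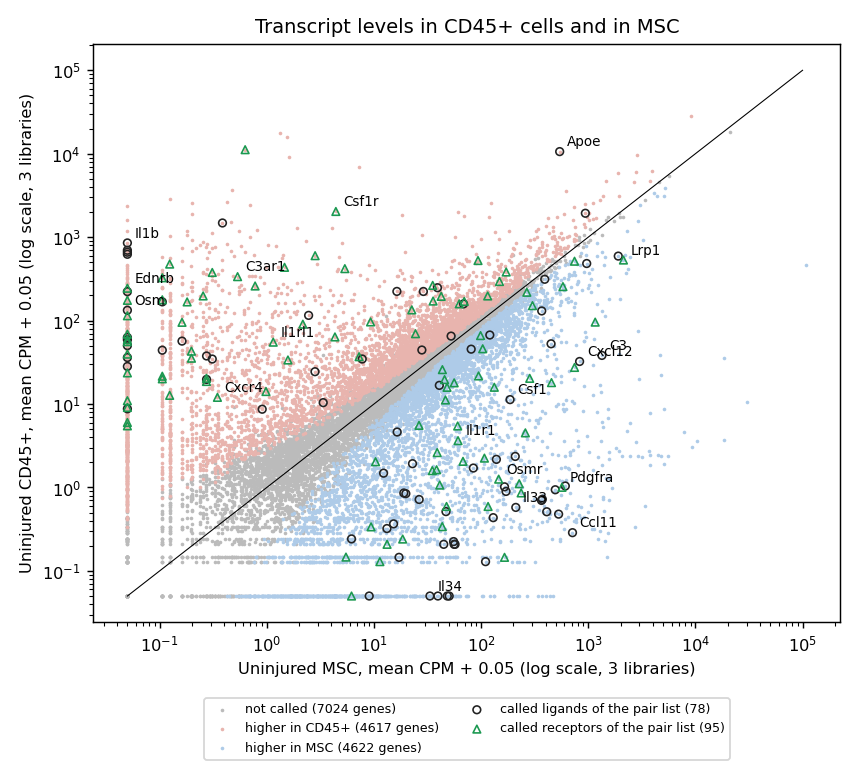
Mean CPM in uninjured MSC (x axis) against uninjured CD45+ cells (y axis) for tested genes, both on log10 scales after adding 0.05 CPM, with colours for called genes, circles for called ligands and triangles for called receptors of the pair list. Csf1r and Il1b lie far above the diagonal, Ccl11 and Pdgfra lie far below it, and genes without a count in a population line up along the left and lower edges at 0.05.

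A list of 166 ligand and receptor pairs in 17 families was then read across the populations. A gene was placed on a side when it was called there with a mean of at least 5 CPM, which 24.6% of all tested genes met for CD45+ cells and 24.1% for MSC. Of 120 ligands tested, 46 (38.3%) were on the stromal side and 32 (26.7%) on the immune side. Of 121 receptors tested, 52 (43.0%) were on the immune side and 43 (35.5%) on the stromal side. The share of ligands on the immune side was near that of all genes, and the other 3 shares were above it. No test was made of these shares, since the list was written with earlier results of these data known.

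In 19 pairs the ligand was higher in MSC and the receptor higher in CD45+ cells, from 18 ligands and 17 receptors. In 14 pairs the ligand was higher in CD45+ cells and the receptor higher in MSC, from 12 ligands and 12 receptors. Pairs that share a gene are not independent of each other. The counts depend on the shares of ligands and receptors on each side given above. No number expected from those shares was worked out, so the counts are a description and no preferred direction is read from them. Both genes were higher in MSC in 32 pairs and both higher in CD45+ cells in 17 pairs. A further 60 pairs had both genes tested and fell in no such class, and 24 pairs had a gene too low to be tested. By family, 7 pairs of chemokines and chemoattractants ran from stroma to immune cells and 0 ran back. Another 11 pairs of this family had both genes higher in CD45+ cells, 2 had both higher in MSC and 12 were in no class. In the TNF family 4 pairs ran from immune cells to stroma and 0 ran the other way. Another 2 pairs of this family had both genes higher in CD45+ cells and 7 were in no class. Across 19 other processing settings, 14 of the 19 stromal-to-immune pairs and 7 of the 14 immune-to-stromal pairs kept their class in every setting. The pairs that did not were Lif with Lifr, Gas6 and Pros1 with Mertk, Thbs1 with Cd36, Lgals9 with Havcr2, Il15 with Il15ra, Il1rn with Il1r1, Clcf1 with Cntfr, Tnf with Tnfrsf1a, Tnfsf14 and Ltb with Ltbr, and Fasl with Fas.

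**Figure D2:**
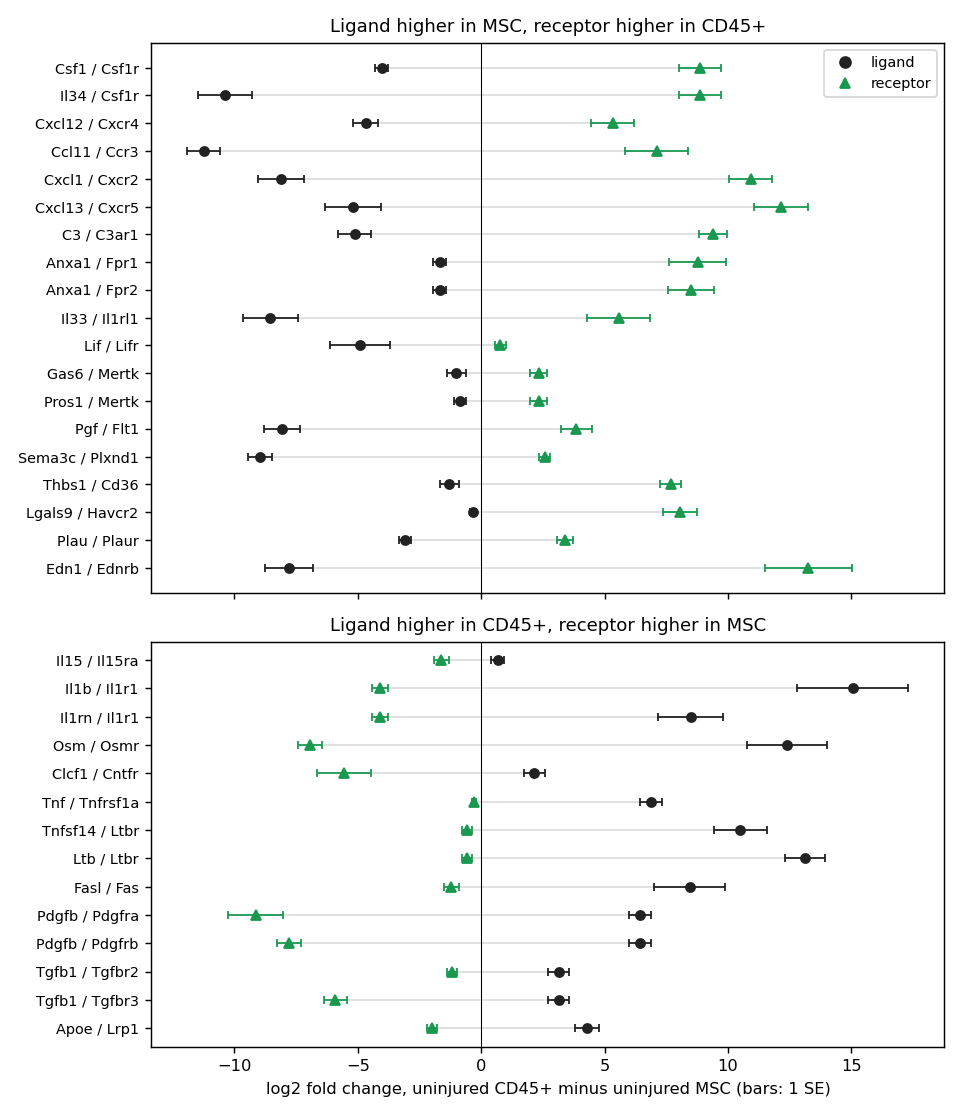
Log2 fold change, CD45+ minus MSC with its SE, of the ligand (circles) and the receptor (triangles) in each pair that crosses between the uninjured populations, stromal ligands with immune receptors above and immune ligands with stromal receptors below. In the upper panel the ligands lie below 0 and the receptors above it, and in the lower panel the order is turned around. The sides were fixed by the choice of pairs and the plot shows the sizes, such as -0.29 for Tnfrsf1a, -0.33 for Lgals9, 8.86 for Csf1r and 9.41 for C3ar1, while fitted values of genes with 0 to 3 counts in a population, such as Il34, Osm and Il1b, depend on the prior count.

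The receptor of the macrophage growth factors was on the immune side and both of its ligands were on the stromal side. Csf1r, the receptor tyrosine kinase for CSF1 and IL-34, stood at 2441, 2251 and 1401 CPM in CD45+ cells and at 4.36, 7.17 and 1.55 CPM in MSC, a log2 fold change of 8.86 (SE 0.85, adjusted p = 1.05e-07). The lowest CD45+ value lay far above the highest MSC value, and 15.1% of the exon bases of Csf1r overlap another gene. Csf1 (chr3:107741048-107760469, GRCm38) stood at 13.1, 5.78 and 14.9 CPM in CD45+ cells and at 203, 196 and 159 CPM in MSC, with a log2 fold change of -4.04 (SE 0.26, adjusted p = 1.08e-11). Il34 (chr8:110741829-110805924), the second ligand of the same receptor, had 37.2, 34.5 and 28.0 CPM in MSC and no count in any CD45+ library, with a fold of at least 125 (adjusted p = 4.72e-08). Both ligands were higher in MSC than in CD31+ cells and MuSC as well: Csf1 stood at 41.2 ± 2.18 CPM in CD31+ cells and Il34 at 9.27 ± 6.52 CPM. The other growth factors of this family showed no such split, since Kitl (stem cell factor) at 15.3 ± 10.3 CPM in MSC and Flt3l at 14.2 ± 1.91 CPM were not called (adjusted p = 0.102 and 0.0629). Kitl was called without CD45+ replicate 1 (0.0155) or MSC replicate 3 (0.0239), and Flt3l in DESeq2 (0.0390), while their receptors were on the immune side. Kit stood at 63.6, 41.9 and 13.2 CPM in CD45+ cells with no count in MSC, and Flt3 at 16.4, 31.5 and 16.6 CPM with 1 count in MSC.

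Among chemokines, 4 stromal genes faced a receptor of the immune cells. Cxcl12 (chr6:117168535-117181367), which retains leukocytes and progenitors in tissue, stood at 37.0, 31.5 and 28.3 CPM in CD45+ cells and at 864, 1035 and 591 CPM in MSC, a log2 fold change of -4.68 (SE 0.51, adjusted p = 4.23e-07). Its receptor Cxcr4 was low, at 8.07, 8.10 and 19.7 CPM in CD45+ cells and at 0, 0 and 0.889 CPM in MSC, with a log2 fold change of 5.33 (SE 0.87, adjusted p = 1.89e-05). MSC were not the highest source of Cxcl12, which stood at 4865 ± 584 CPM in CD31+ cells. Ccl11 (chr11:82057823-82062955), the eosinophil attractant eotaxin, stood at 627, 528 and 984 CPM in MSC with 3 counts in all CD45+ libraries together, and Ccr3, its receptor, stood at 25.9, 6.07 and 6.01 CPM in CD45+ cells. The first of these 3 CD45+ libraries held over 4 times the Ccr3 level of the other two.

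Cxcl1 (chr5:90891241-90893115), a neutrophil attractant, stood at 38.0, 39.0 and 94.2 CPM in MSC with 2 counts in all in CD45+ cells. Its receptor Cxcr2 stood at 180.1, 60.4 and 292 CPM in CD45+ cells with 1 count in MSC. Cxcl2, which binds the same receptor, was on the immune side, at 52.9, 17.9 and 117 CPM in CD45+ cells with no count in MSC. Cxcl1 and Cxcl2 are near-identical in parts of their sequence and the treatment of reads that match both is not known, so their values are uncertain. Cxcl13 (chr5:95956951-95961068), which attracts B cells, stood at 48.8, 12.5 and 17.8 CPM in MSC, against 1.42, 0.578 and 0 CPM in CD45+ cells. Cxcr5, the receptor of follicular B cells, stood at 53.4, 93.4 and 195 CPM in CD45+ cells with no count in MSC. Its order over the 3 libraries was that of the B cell and T cell lists given further on.

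Complement and annexin gave the remaining attractant pairs. C3 (chr17:57203970-57228136), the central component of complement, stood at 1756, 1591 and 677 CPM in MSC, against 38.2, 22.0 and 54.4 CPM in CD45+ cells, a log2 fold change of -5.13 (SE 0.67, adjusted p = 4.11e-06). C3ar1, the receptor of its fragment C3a, stood at 396, 357 and 255 CPM in CD45+ cells and at 0.335, 0.672 and 0.444 CPM in MSC. Neither gene overlapped between the groups. Anxa1, whose protein annexin A1 binds formyl peptide receptors, had 1905 ± 117 CPM in MSC and a level in CD45+ cells of 593 ± 53.6 CPM. Its receptors Fpr1 and Fpr2 were at 9.49, 4.92 and 18.3 CPM and 10.2, 5.50 and 11.4 CPM in CD45+ cells with no count in MSC. Cxcr4, Fpr1, Fpr2 and the other genes of crossing pairs that stayed below 20 CPM lie outside the rule for named genes, and were added after their values were seen so that each pair is accounted for.

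Il33 (chr19:29925114-29960718), an alarmin of the interleukin 1 family that stromal cells hold in the nucleus, stood at 0.712, 0.868 and 0 CPM in CD45+ cells and at 200.2, 219 and 213 CPM in MSC, a log2 fold change of -8.55 (SE 1.12, adjusted p = 4.35e-06). The 3 MSC values lay within a narrow range. Its receptor Il1rl1 (ST2) stood at 78.8, 53.8 and 32.6 CPM in CD45+ cells and at 1.51, 1.12 and 0.666 CPM in MSC, a log2 fold change of 5.58 (SE 1.27, adjusted p = 0.00156). ST2 is carried by mast cells, regulatory T cells and type 2 lymphoid cells among others, and the mast cell list had the same order over the 3 CD45+ libraries, at 2088, 547 and 305 CPM summed. The macrophage list fell in that order as well, at 16328, 14681 and 7967 CPM. The part of mast cells or of any other cell type in the Il1rl1 level was not tested.

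**Figure D3:**
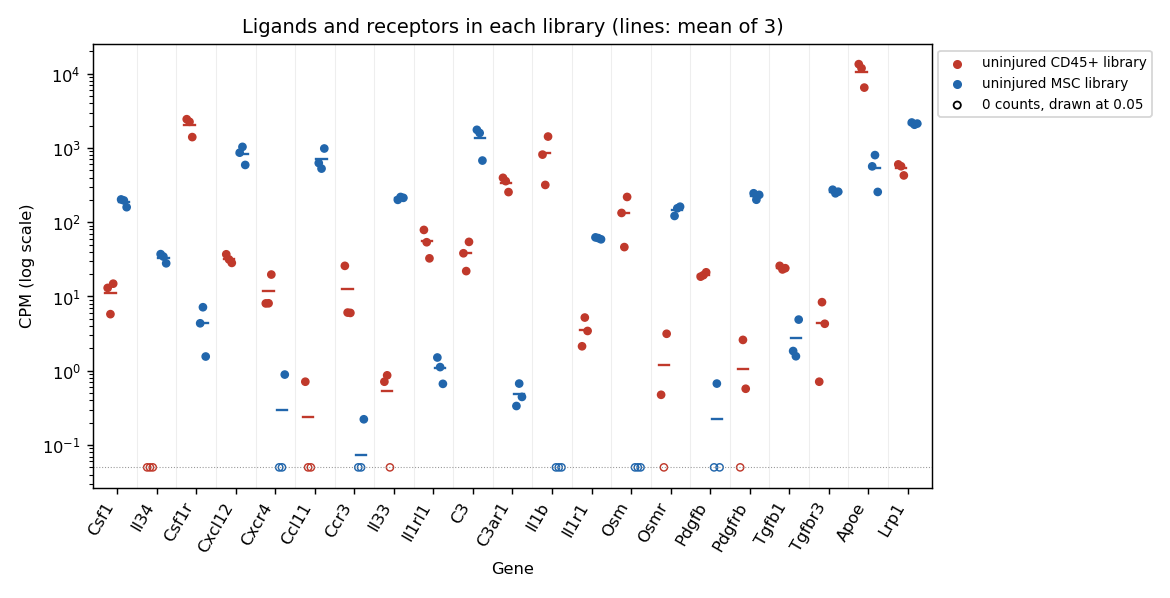
CPM in each uninjured library (log axis) of 21 ligands and receptors from crossing pairs, with the 3 CD45+ and 3 MSC libraries as separate points, their means as lines, and libraries with 0 counts as open circles at 0.05. For Csf1, Il34, Il33 and Osmr the MSC points all lie above the CD45+ points, and for Csf1r, C3ar1, Il1b and Osm the CD45+ points all lie above the MSC points.

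Guidance, vascular and protease genes made up 4 further pairs that kept their class in all settings. Sema3c, a secreted semaphorin, stood at 369, 418 and 311 CPM in MSC, against 1.66, 0 and 0.286 CPM in CD45+ cells, and its receptor Plxnd1 was at 134 ± 29.4 CPM in CD45+ cells and 22.5 ± 1.26 CPM in MSC. Plau, the plasminogen activator urokinase, stood at 449.7 ± 95.1 CPM in MSC and 52.7 ± 20.2 CPM in CD45+ cells (log2 fold change -3.09, SE 0.25, adjusted p = 1.12e-09). Plaur, the surface receptor that holds urokinase, stood at 96.3 ± 52.5 CPM in CD45+ cells and 9.24 ± 0.605 CPM in MSC (log2 fold change 3.38, SE 0.33, adjusted p = 1.34e-08). Pgf, placental growth factor, had 60.3, 41.0 and 64.6 CPM in MSC, and its receptor Flt1 stood at 9.49, 9.26 and 23.5 CPM in CD45+ cells. Flt1 is an endothelial receptor whose CD45+ mean was 1.03% of its level in CD31+ cells, while 9 endothelial genes without Pecam1, Flt1 among them, summed to 0.196% to 0.700% of their CD31+ level in the CD45+ libraries. The part of endothelial RNA in the Flt1 call was not tested.

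Edn1, endothelin 1, stood at 69.4, 48.4 and 16.4 CPM in MSC with 2 counts in CD45+ cells, and its receptor Ednrb at 427, 277 and 28.0 CPM in CD45+ cells with no count in MSC. The third CD45+ library lay about an order of magnitude below the others for Ednrb. The Ednrb mean in CD45+ cells was 141% of that in CD31+ cells, and the part of endothelial RNA in the Ednrb level was not tested. Edn1 itself was more abundant in CD31+ cells, at 136 ± 37.5 CPM.

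Several pairs rested on small differences. Gas6 with Mertk kept its class in 10 of the 19 settings and Pros1 with Mertk in 16. Leaving out CD45+ replicate 3 or any MSC library also gave edgeR another TMM reference, so for these libraries 2 adjusted p are given, the first with the changed reference and the second with the reference kept. Gas6 and Pros1, the ligands that bridge dying cells to TAM receptors, had 611, 656 and 182 CPM and 89.5, 79.0 and 32.9 CPM in CD45+ cells against 1179, 1084 and 638 CPM and 134, 123 and 105 CPM in MSC (adjusted p = 0.0315 for Gas6, and log2 fold change -0.84, SE 0.24, adjusted p = 0.00502 for Pros1). The Gas6 values of the groups overlapped, and the adjusted p of Gas6 ranged from 0.00821 to 0.248 over the other settings, past 0.05 without CD45+ replicate 3 (0.248 and 0.105), MSC replicate 1 (0.226 and 0.109) or MSC replicate 2 (0.183 and 0.0829). Without the same libraries the adjusted p of Pros1 was past 0.05 with the changed reference (0.142, 0.0907 and 0.0630) and under it with the reference kept (0.0268, 0.0219 and 0.0140), in a range of 8.32e-05 to 0.142. Their receptor Mertk, which takes part in the clearance of dying cells by macrophages, was at 46.0, 43.4 and 21.2 CPM in CD45+ cells and 10.1, 5.38 and 6.22 CPM in MSC. Lgals9 (galectin 9) differed by -0.33 on the log2 scale (SE 0.11, adjusted p = 0.0159), with 329, 309.8 and 299 CPM in CD45+ cells and 422, 407 and 349 CPM in MSC, and the call was lost in 10 of the 19 settings. Its adjusted p ranged from 0.00673 to 0.658, at 0.426 and 0.0517 without CD45+ replicate 3, at 0.658 and 0.0658 without MSC replicate 1, at 0.556 and 0.0456 without MSC replicate 2 and at 0.112 and 0.00673 without MSC replicate 3. The receptor of Lgals9, Havcr2 (TIM-3), was firmly on the immune side, at 41.5, 48.9 and 38.4 CPM with 2 counts in MSC.

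Thbs1, the matricellular protein thrombospondin 1, stood at 13.1, 8.10 and 28.9 CPM in CD45+ cells and at 29.2, 37.9 and 55.1 CPM in MSC (log2 fold change -1.29, SE 0.38, adjusted p = 0.00802). The MSC values all lay above the CD45+ values, though by little, and the adjusted p of Thbs1 ranged from 4.68e-04 to 0.102. Without MSC replicate 3 it was 0.102 with the changed reference and 0.0475 with the reference kept. Cd36, its scavenger receptor, had 599.8 ± 154 CPM in CD45+ cells and 2.77 ± 1.71 CPM in MSC, and CD31+ cells held 5253 ± 763 CPM. Lif had only 9.89, 5.38 and 3.11 CPM in MSC, and its receptor Lifr, at 253, 196 and 143 CPM in CD45+ cells and 83.5, 98.6 and 163 CPM in MSC, overlapped between the groups (log2 fold change 0.78, SE 0.21, adjusted p = 0.00295). The pair of Lif with Lifr left its class without MSC replicate 1, since the remaining MSC libraries of Lif averaged below 5 CPM.

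From immune cells to stroma, interleukin 1 beta and oncostatin M were among the ligands without a count in MSC. Il1b (chr2:129364570-129371139) stood at 814, 318 and 1425 CPM in CD45+ cells and had no count in any MSC library, a fold of at least 4239 (adjusted p = 3.94e-05). Il1r1, the signalling receptor, stood at 2.14, 5.21 and 3.43 CPM in CD45+ cells and at 62.5, 61.2 and 58.9 CPM in MSC, a log2 fold change of -4.10 (SE 0.33, adjusted p = 1.71e-10). The receptor varied little among the MSC libraries, while the ligand differed by over 4-fold among the CD45+ libraries. Il1rn, the antagonist that occupies the same receptor, followed the ligand's order at 64.8, 25.5 and 79.9 CPM, with 2 counts in MSC. DESeq2 gave no adjusted p for Il1rn. The decoy receptor Il1r2 was not called, at 55.9 ± 24.8 CPM in CD45+ cells and 67.9 ± 37.9 CPM in MSC (adjusted p = 0.750).

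Osm (chr11:4236420-4241026), a cytokine of the interleukin 6 family made by myeloid cells, stood at 133, 46.3 and 219 CPM in CD45+ cells with no count in MSC, a fold of at least 663 (adjusted p = 5.48e-05). Osmr (chr15:6813577-6874969), which forms its receptor with gp130, stood at 0.475, 0 and 3.15 CPM in CD45+ cells and at 121, 154 and 162 CPM in MSC, a log2 fold change of -6.93 (SE 0.48, adjusted p = 2.66e-10). MSC were not the highest for Osmr, which had 404 ± 15.2 CPM in CD31+ cells. Over the 3 CD45+ libraries Il1b, Il1rn, Osm and Cxcr2 shared their order with the summed neutrophil list (2334, 1599 and 3863 CPM), lowest in replicate 2 and highest in replicate 3. The monocyte list (2133, 1935 and 3133 CPM) had that order too, as did the list of immediate early genes described further on (9163, 5870 and 10421 CPM). These 3 points are a description, and the part of neutrophil or monocyte number in these levels was not tested.

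Growth factors of the PDGF and TGF-beta families met stromal receptors. Pdgfb stood at 18.5, 19.4 and 21.2 CPM in CD45+ cells with 3 counts in MSC. Pdgfrb, its main receptor, stood at 0, 2.60 and 0.572 CPM in CD45+ cells and at 245, 201 and 234 CPM in MSC, a log2 fold change of -7.80 (SE 0.49, adjusted p = 1.25e-11). Pdgfra, the other receptor, was part of the gate. CD31+ cells held more Pdgfb than CD45+ cells, at 132 ± 13.5 CPM. Tgfb1 (chr7:25687002-25705077) had 24.3 ± 1.39 CPM in CD45+ cells and stood at 1.84, 1.57 and 4.89 CPM in MSC (log2 fold change 3.15, SE 0.42, adjusted p = 8.19e-07). Tgfbr2, the signalling receptor, was 255 ± 72.6 CPM in CD45+ cells and 580.5 ± 63.5 CPM in MSC, and Tgfbr3, the co-receptor betaglycan, 4.46 ± 3.84 CPM and 259 ± 14.5 CPM. The isoforms Tgfb2 and Tgfb3 were on the stromal side instead, at 124, 117 and 148 CPM and 131, 166 and 119.5 CPM in MSC and under 3 CPM in each CD45+ library.

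Apoe, the lipid carrier apolipoprotein E, was among the most abundant transcripts of CD45+ cells at 13455, 11844 and 6503 CPM and stood at 565, 802 and 256 CPM in MSC (log2 fold change 4.29, SE 0.48, adjusted p = 6.41e-07). Lrp1, a receptor that takes up apolipoproteins and proteases, was present in both populations, at 601, 567 and 427 CPM in CD45+ cells and 2202, 2056 and 2130.3 CPM in MSC (adjusted p = 7.11e-08). Neither gene overlapped between the groups.

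In the TNF family the ligands of the 4 crossing pairs were low or without a count in MSC, and their receptors were present in both populations. Another 6 tested ligands of the family were on neither side, and 5 of its other receptors were on the immune side. The pairs of Tnf with Tnfrsf1a and of Tnfsf14 and Ltb with Ltbr each kept their class in 11 of the 19 settings. Tnf had 37.3, 29.5 and 36.9 CPM in CD45+ cells and 0.335, 0 and 0.444 CPM in MSC (log2 fold change 6.89, SE 0.44, adjusted p = 3.95e-12). Ltb (lymphotoxin beta) and Tnfsf14 (LIGHT) had 138, 187 and 342 CPM and 40.3, 18.5 and 49.2 CPM in CD45+ cells and no count in MSC. Tnfrsf1a, the broadly expressed TNF receptor, was 218 ± 12.3 CPM in CD45+ cells and 267 ± 8.93 CPM in MSC, a difference of -0.29 (SE 0.10, adjusted p = 0.0163) that was lost in 8 settings. The adjusted p of Tnfrsf1a ranged from 0.00697 to 0.711, at 0.596 without CD45+ replicate 3 (0.0630 with the TMM reference kept) and at 0.479, 0.711 and 0.350 without MSC replicates 1, 2 and 3 (0.0267, 0.0493 and 0.0246 with the reference kept). Ltbr, the lymphotoxin receptor, overlapped between the groups at 70.7, 82.1 and 45.2 CPM in CD45+ cells and 71.6, 113 and 112 CPM in MSC (adjusted p = 0.0184), and its adjusted p ranged from 0.00278 to 0.437, at 0.437 without CD45+ replicate 3 and at 0.342 and 0.272 without MSC replicates 2 and 3 (0.127, 0.0766 and 0.0736 with the reference kept). Fas, the death receptor, stood at 26.8, 11.3 and 20.6 CPM in CD45+ cells and 52.1, 41.4 and 43.1 CPM in MSC (log2 fold change -1.21, SE 0.31, adjusted p = 0.00178), and its ligand Fasl at 6.88, 8.10 and 11.2 CPM in CD45+ cells with no count in MSC, though the adjusted p of Fasl in DESeq2 was 0.0676 (lowest of all settings 1.85e-07).

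The remaining immune ligands were Il15 and Clcf1. Il15, a cytokine of NK and memory T cells, stood at 47.7, 35.3 and 50.1 CPM in CD45+ cells and 25.5, 22.0 and 36.4 CPM in MSC. These values overlapped (log2 fold change 0.67, SE 0.27, adjusted p = 0.0398), and the adjusted p of Il15 ranged from 0.00455 to 0.174, at 0.108 without CD45+ replicate 1. Its pair with Il15ra kept its class in 14 of the 19 settings. The pair left its class without CD45+ replicate 1. With the TMM reference kept, it also left its class without CD45+ replicate 3, MSC replicate 1 or MSC replicate 2. Il15ra, which presents the cytokine, was 13.5, 8.97 and 24.9 CPM in CD45+ cells and 55.6, 39.7 and 48.9 CPM in MSC (log2 fold change -1.61, SE 0.29, adjusted p = 4.35e-05). Clcf1 had 34.6 ± 14.2 CPM in CD45+ cells and 7.73 ± 3.64 CPM in MSC, with MuSC far above both at 151 ± 24.6 CPM. Its receptor subunit Cntfr reached 4.02, 6.05 and 6.22 CPM in MSC, close to the minimum of 5 CPM.

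Windows of 250 bases before the transcription start were read for genes of the crossing pairs from RefSeq on GRCm38.p6, where 47 of 59 genes had an entry. The search covered 7 motifs on both strands, spelled GAGGAAGT for PU.1, TGANTCA for AP-1, GGGA, any base and TTTCC for NF-kB, TTGCGCAA for C/EBP, TTGGC, 5 bases of any kind and GCCAA for NFI, GGAATG for TEAD and TATAAA for the TATA box, where N is any base. Printed here are 3 of the 4 windows read with the NF-kB letters, a stromal ligand of macrophages, a stromal neutrophil attractant and an immune TNF family ligand. Also printed is the window of Havcr2, the sole one among the windows read with the PU.1 letters. Capitals mark the matches, and positions are counted back from the start. Csf1 (chr3:107760470-107760719, minus strand) holds the NF-kB letters at -154 to -145, Cxcl1 (chr5:90890995-90891244, plus strand) at -71 to -62, and Ltb (chr17:35194257-35194506, plus strand) at -87 to -78. Havcr2 (chr11:46454681-46454930, plus strand) holds the AP-1 letters at -200 to -194 and the PU.1 letters at -8 to -1.
Csf1: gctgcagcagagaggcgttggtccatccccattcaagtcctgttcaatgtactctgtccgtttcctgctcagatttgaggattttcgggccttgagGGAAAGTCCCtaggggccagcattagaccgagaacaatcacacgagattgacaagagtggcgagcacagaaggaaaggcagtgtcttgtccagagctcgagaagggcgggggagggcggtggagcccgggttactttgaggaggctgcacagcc
Cxcl1: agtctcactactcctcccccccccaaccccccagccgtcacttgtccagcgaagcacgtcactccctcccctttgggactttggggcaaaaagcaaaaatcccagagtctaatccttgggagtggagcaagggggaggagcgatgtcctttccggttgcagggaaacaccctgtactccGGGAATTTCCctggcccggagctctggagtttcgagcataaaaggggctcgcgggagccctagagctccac
Ltb: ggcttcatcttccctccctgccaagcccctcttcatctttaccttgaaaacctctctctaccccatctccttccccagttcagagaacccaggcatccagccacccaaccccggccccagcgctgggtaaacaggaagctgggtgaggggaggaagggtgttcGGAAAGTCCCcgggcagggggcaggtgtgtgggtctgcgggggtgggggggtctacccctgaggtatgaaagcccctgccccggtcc
Havcr2: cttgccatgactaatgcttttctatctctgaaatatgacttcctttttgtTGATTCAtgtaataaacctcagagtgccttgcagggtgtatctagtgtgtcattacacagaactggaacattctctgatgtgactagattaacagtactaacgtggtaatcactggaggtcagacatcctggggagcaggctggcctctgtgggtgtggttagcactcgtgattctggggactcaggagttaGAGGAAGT

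Over all genes, the PU.1 letters, named for a transcription factor of myeloid and B cells, were in 5.95% of 1866 windows of genes over 4-fold higher in CD45+ cells and in 1.33% of 2253 windows of genes over 4-fold higher in MSC, against 2.61% of 14548 windows of tested genes and 2.44% of 32851 windows in the table. The AP-1 letters were in 7.13% and 5.77% of the windows of these sides and in 4.88% of those of tested genes. TEAD letters were in 10.9% and 13.8% against 10.9%, TATA letters in 9.43% and 8.83% against 7.05%, and NF-kB letters in 0.536% and 0.311% against 0.385%. C/EBP and NFI letters were in fewer than 0.3% of windows in each set. The matches and shares are descriptions of letters in these windows and say nothing of a factor's binding.

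Both genes of 32 pairs were on the stromal side. They included 9 pairs of the TGF-beta, activin and BMP family, 4 of the FGF family and 4 of hormones and vasoactive peptides. Enpp2, the enzyme autotaxin that makes lysophosphatidic acid, stood at 586, 513 and 733 CPM in MSC, and Lpar1, a receptor for that lipid, at 302, 256 and 295 CPM, against 0.991 ± 1.01 CPM and 20.3 ± 2.39 CPM in CD45+ cells. Slit3, a guidance ligand, had 439, 357 and 323 CPM in MSC, and Agtr1a, the angiotensin receptor, 199, 170.3 and 126 CPM with 1 count in CD45+ cells. Gas6 paired with Axl here, at 1161 ± 85.8 CPM in MSC and 95.8 ± 12.2 CPM in CD45+ cells, as it did with Mertk across the populations. Igf1 stood at 166, 167 and 58.4 CPM in CD45+ cells and 395, 378 and 331 CPM in MSC (log2 fold change -1.49, SE 0.35, adjusted p = 0.00126), and the adjusted p of its receptor Igf1r ranged from 0.00103 to 0.215, past 0.05 without CD45+ replicate 3 (0.194), MSC replicate 2 (0.0954) or MSC replicate 3 (0.215). With the TMM reference kept these values of Igf1r were 0.0573, 0.0193 and 0.0620.

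Both genes of 17 pairs were on the immune side, 11 of them from the family of chemokines and chemoattractants. Ccl6 stood at 1809, 1249 and 1378 CPM, Ccl9 at 796, 556 and 518 CPM and their receptor Ccr1 at 217, 136 and 171 CPM in CD45+ cells. The MSC libraries together held 5 counts of Ccl6 and 0 of Ccl9 and Ccr1. Mif with its receptor Cd74, which is not a chemokine receptor, was among these 11, but Mif differed by only 0.31 (adjusted p = 0.0333). The call of Mif was lost in 8 settings, with an adjusted p of 8.39e-04 to 0.178 over all settings and of 0.0551 without CD45+ replicate 1. Ccl2 and Ccl7, the monocyte attractants, were on neither side: Ccl2 stood at 89.0, 58.1 and 73.0 CPM in CD45+ cells and 30.0, 33.4 and 49.8 CPM in MSC (adjusted p = 0.283, but 0.00566 for Ccl2 in a fit of the 6 libraries alone and 0.00991 with the 12 uninjured libraries), and their receptor Ccr2 at 472, 326 and 334 CPM in CD45+ cells.

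Some receptors were high on a side with no listed ligand placed on either. Egfr stood at 22.3, 20.8 and 10.9 CPM in CD45+ cells and 481, 439.5 and 441 CPM in MSC, while none of its 6 listed ligands was called with 5 CPM in these populations. Il11ra1, the receptor of interleukin 11, stood at 893, 774 and 567 CPM in MSC, and Ntrk2, the receptor of BDNF, at 267, 273 and 169 CPM. On the immune side Csf3r stood at 346, 134 and 497 CPM, Csf2ra at 458, 447 and 353 CPM, C5ar1 at 547, 411 and 468 CPM and Il6ra at 213, 219 and 153 CPM, receptors of the granulocyte and granulocyte-macrophage factors, of complement C5a and of interleukin 6. Ccr7, the homing receptor of lymphocytes and mature dendritic cells, stood at 147, 172 and 460.0 CPM and was highest in replicate 3. Apart from Csf3r these genes were chosen after their values were seen, as were Ccl2, Ccl7, Ccr2, Kitl, Flt3l, Il1r2 and Tlr4.

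Against all 4 uninjured populations, 14 of the 18 stromal ligands were higher in MSC than in each other population, where 9.09% of all tested genes were. The others were Cxcl12, Edn1, Gas6 and Lgals9. Of the 17 immune receptors, 10 were higher in CD45+ cells than in each other population (13.7% of all tested genes), and Cd36, Cxcr4, Ednrb, Flt1, Lifr, Mertk and Plxnd1 were not. Of the 12 immune ligands 9 were highest in CD45+ cells, without Clcf1, Il15 and Pdgfb, and of the 12 stromal receptors 6 were highest in MSC, without Fas, Il15ra, Ltbr, Osmr, Tgfbr3 and Tnfrsf1a. Being called between CD45+ cells and MSC was a condition of membership, so these counts cannot be set against the background shares as a test.

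The CD45+ libraries differed among themselves in the summed marker lists of immune cell types. The macrophage list summed to 16328, 14681 and 7967 CPM over replicates 1 to 3, and the B cell list to 2520.3, 4170.5 and 7334 CPM. The T cell list summed to 259, 436 and 566 CPM, the neutrophil list to 2334, 1599 and 3863 CPM and the mast cell list to 2088, 547 and 305 CPM. Replicate 3 was lowest for macrophage and mast cell genes and highest for B cell, T cell and neutrophil genes. Among the members, Csf1r, C3ar1, Mertk, Apoe and Ednrb were lowest in replicate 3, while Cxcr5, Ltb, Cxcr2, Il1b and Osm were highest there. The part of the cell mixture in each member's spread was not tested. In MSC the tendon cell list summed to 466, 1233 and 444 CPM, highest in replicate 2.

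Marker genes of each immune cell type listed were found in CD45+ cells. Every tested gene of the macrophage (15), neutrophil (10), dendritic cell (10), B cell (10), T cell (12), NK cell (8) and eosinophil (3) lists was higher in CD45+ cells, as were 6 of 7 mast cell genes and 9 of 10 monocyte genes, where 28.4% of all tested genes were. The monocyte list gene Ace, the angiotensin-converting enzyme, was higher in MSC. Not tested were 3 of 6 eosinophil genes, 2 of 12 neutrophil genes, 2 of 9 mast cell genes and 1 of 9 NK cell genes. Of the eosinophil genes 2 had no count in CD45+ cells, and that list summed to 58.6, 18.2 and 26.6 CPM over the 3 CD45+ libraries. Beyond these markers, all 10 MHC class II genes, all 13 Fc receptor and ITAM adaptor genes and all 6 phagocyte oxidase genes were higher in CD45+ cells. Ncf1 and Ncf4, cytosolic subunits of the oxidase, had 373 ± 71.5 and 200.3 ± 29.5 CPM in CD45+ cells, while Ncf1 had 0.204 ± 0.224 CPM in MSC and Ncf4 had no count there. Of 14 Toll-like receptors and adaptors 11 were higher in CD45+ cells and 3 were not called, among them Tlr4 at 21.9 ± 3.31 CPM in CD45+ cells and 23.5 ± 3.35 CPM in MSC.

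The stromal lists were as uniform. All 16 collagens, all 11 small leucine-rich proteoglycans and all 18 elastic fiber genes and glycoproteins were higher in MSC, where 28.4% of all tested genes were, with median log2 fold changes of -10.38, -10.11 and -9.16, taking genes without a count in a group at their bound. All 23 tested mesenchymal transcription factors and 13 of 16 tested Hox genes were higher in MSC. Hoxa10, Hoxc9 and Hoxc10, which mark the position of limb mesenchyme, had 42.8 ± 5.44, 24.5 ± 1.37 and 24.7 ± 3.81 CPM in MSC and no count in CD45+ cells. Of 20 tested antagonists of BMP, Wnt and IGF signals 19 were higher in MSC, among them Igfbp6 at 3726 ± 643 CPM and Fstl1 at 4783 ± 302 CPM, against 2.69 ± 0.452 and 2.31 ± 0.514 CPM in CD45+ cells.

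Other lists were divided between the populations. Of 18 complement genes 8 were on each side, as were 28.4% of all tested genes: the C1q chain C1qc, properdin (Cfp) and the receptors C3ar1 and C5ar1 were higher in CD45+ cells, and the proteases C1ra and C1s1, C3 and the inhibitor Serping1 were higher in MSC. Serping1 stood at 7907 ± 1553 CPM in MSC and 4.57 ± 4.85 CPM in CD45+ cells, and 18.4% of the exon bases of C1s1 overlap another gene. Of 18 matrix proteases and inhibitors 14 were higher in MSC (28.4% of all tested genes), and Mmp8, Mmp9, Mmp12 and Adam8, made by neutrophils and macrophages, were higher in CD45+ cells. Ctsl was higher in MSC, at 1967 ± 366 CPM and 181 ± 75.3 CPM, where 11 of 14 lysosomal genes were higher in CD45+ cells (28.4% of all tested genes), though 26.8% of its exon bases overlap another gene.

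Immediate early genes, which are induced within minutes by signals and by cell handling, were called in both directions. Of 24 genes, 15 were higher in CD45+ cells, where 28.4% of all tested genes were, among them Zfp36 at 493 ± 93.0 CPM and 115 ± 18.6 CPM in MSC (log2 fold change 2.10, SE 0.25, adjusted p = 5.87e-07) and Atf3 (log2 fold change 3.13, SE 0.40, adjusted p = 1.80e-06). Jun, Egr1, Klf4 and Myc were higher in MSC. The calls of Jun and Myc were lost without CD45+ replicate 3 or any single MSC library, and that of Egr1 without any single library of the 6. With the TMM reference kept Jun stayed called without each library, Myc was lost without CD45+ replicate 3 (adjusted p = 0.0763) or MSC replicate 1 (0.0506), and Egr1 stayed called without MSC replicate 2 alone (0.0316). Their adjusted p ranged from 0.00116 to 0.161 for Jun, from 0.00422 to 0.269 for Egr1 and from 0.0129 to 0.403 for Myc. Small shifts in 1 direction were seen in cytosolic ribosomal protein genes, 18 of 22 of which were higher in CD45+ cells (28.4% of all tested genes) and 4 not called, with a median log2 fold change of 0.45. The median of all genes was 0.04. Many ribosomal protein genes have processed pseudogenes, so their counts are uncertain.

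Markers of other cells of the tissue were read in the same way. Of 10 endothelial genes, Pecam1 included, 8 were higher in CD45+ cells (28.4% of all tested genes) and Tek was higher in MSC, while the list without Pecam1 stayed at the share of its CD31+ level given beside Flt1. Of 9 tested muscle fiber genes 6 were higher in MSC (28.4% of all tested genes), at 200.1 to 445 CPM summed, against 67.3 to 116 CPM in CD45+ cells. Ckm lost its call without MSC replicate 1 (adjusted p = 0.0866, lowest value 1.00e-06), though not with the TMM reference kept (0.0378). Tnnt3 lost its call without MSC replicate 1 (0.167), MSC replicate 2 (0.0665), CD45+ replicate 1 (0.0610) or CD45+ replicate 3 (0.126), from a lowest value of 0.00105. With the reference kept Tnnt3 stayed called without MSC replicate 2 (0.0306) and not without the other 3 of these libraries. The satellite cell list of 9 tested genes summed to as much as 99.1 CPM in MSC and to 3.80 to 12.4 CPM in CD45+ cells, with 2 genes higher in MSC and 7 not called. Most of the MSC sum was Des, the intermediate filament desmin of muscle and mural cells, at 82.5 ± 13.1 CPM against 5.01 ± 4.43 CPM in CD45+ cells, and Chodl was the other called gene. The defining genes Pax7, Myf5 and Myod1 had no count in CD45+ cells, and none of them averaged above 0.0747 CPM in MSC. The red cell and platelet list summed to 2039, 1487 and 518 CPM in the CD45+ libraries and to 26.0 to 88.1 CPM in MSC. Of its 7 tested genes Pf4, platelet factor 4, was higher in CD45+ cells at 1529.5, 1483 and 509 CPM, Itga2b was higher in MSC at 31.7 ± 6.64 CPM, and 5 were not called. The part of RNA from these other cells in the values of either population was not tested.

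**Figure D4:**
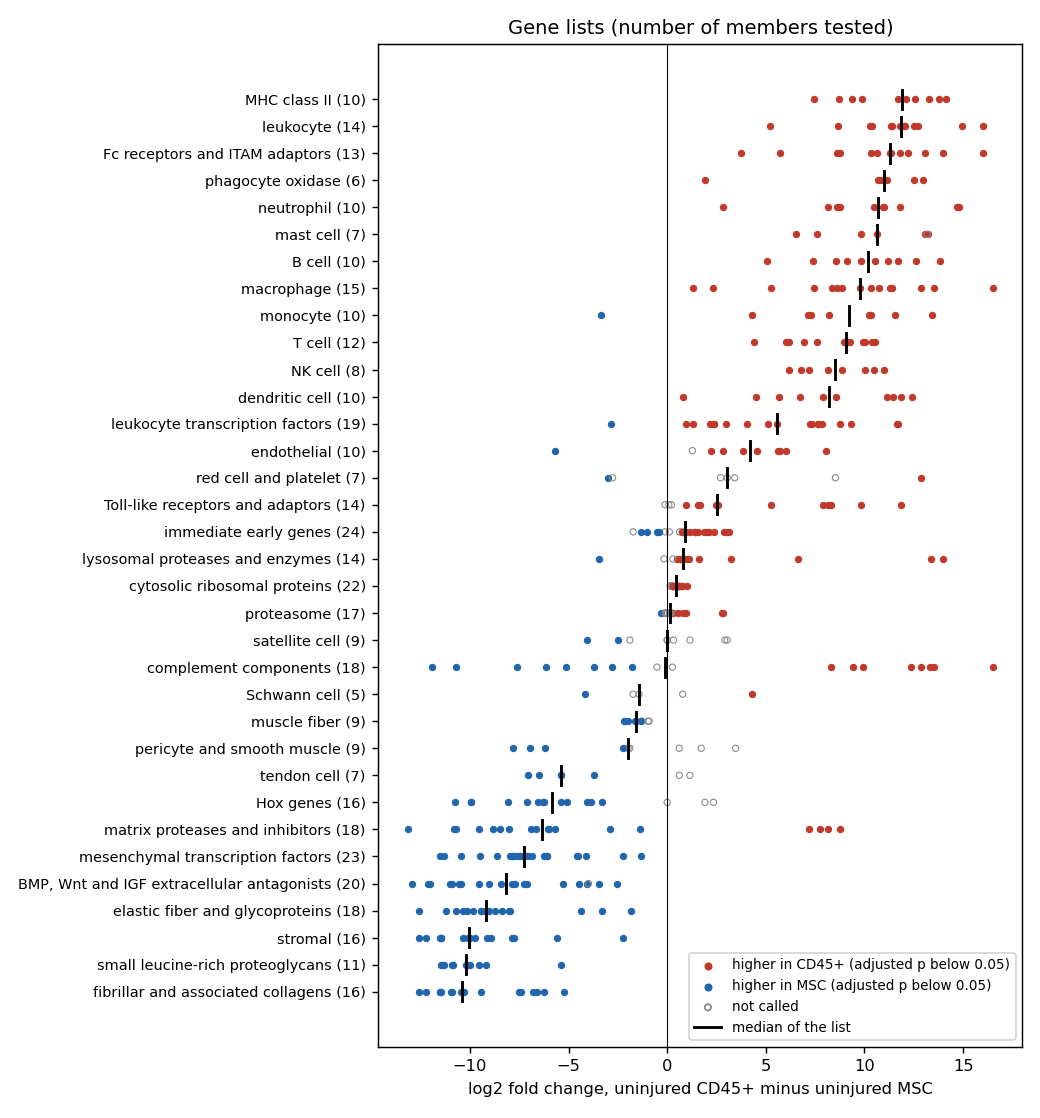
Log2 fold change, CD45+ minus MSC, of each tested member of the gene lists, with the median of each list as a bar and 0 as a line. Fitted values of genes without counts in a population depend on the prior count. All points of the collagen and proteoglycan lists lie on the MSC side, all points of the MHC class II and Fc receptor lists lie on the CD45+ side, and complement genes spread over both.

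The same pairs were read 1 day after cardiotoxin. Of 173 pair genes called between the uninjured populations, the difference between populations changed after injury for 48 (25.1% of all tested genes changed) and was not called as changed for 125. For a gene without counts in a group, that test can return a p of 1 at any fitted difference. The injured contrast put 18 pairs in the stromal-to-immune class, 10 of them shared with the uninjured muscle, and 9 in the immune-to-stromal class, 6 of them shared. Of all tested genes, 23.2% were called higher in injured CD45+ cells and 27.8% higher in injured MSC with at least 5 CPM. Csf1 and Il34 with Csf1r, Cxcl12 with Cxcr4, Ccl11 with Ccr3, Cxcl1 with Cxcr2, Gas6 and Pros1 with Mertk, Sema3c with Plxnd1, Plau with Plaur and Edn1 with Ednrb kept the stromal-to-immune class. Il15 with Il15ra, Il1b and Il1rn with Il1r1, Osm with Osmr and Tgfb1 with Tgfbr2 and Tgfbr3 kept the other class. The CD45+ cells of injured muscle may hold other cell types in other shares, and a change in mixture and a change within cells cannot be told apart here.

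The largest change of side was that of Il1rl1. In injured muscle the ST2 gene stood at 5.73 ± 4.29 CPM in CD45+ cells and at 434 ± 115 CPM in MSC, so that its log2 difference moved by -11.81 (SE 1.63, adjusted p = 6.95e-05). With Il33 at 556 ± 89.0 CPM in injured MSC, both genes of that pair were then on the stromal side. Thbs1 moved the other way, to 1473 ± 122 CPM in injured CD45+ cells and 119.7 ± 11.6 CPM in injured MSC (change in log2 difference 4.91, adjusted p = 1.27e-06). Osm and Il1b had 985 ± 341 and 4868 ± 1439 CPM in injured CD45+ cells, while Osmr and Il1r1 had 377 ± 21.1 and 119.9 ± 4.52 CPM in injured MSC. The Osmr difference was not called as changed (adjusted p = 0.281), and the Il1r1 difference was (log2 -3.38, adjusted p = 1.71e-04). C3 and Anxa1 left their class, with C3 at 184 ± 17.5 CPM in injured CD45+ cells and 335 ± 136 CPM in injured MSC. Csf1 stayed on the stromal side with a smaller difference, at 99.9 ± 8.08 CPM in injured CD45+ cells and 432 ± 57.1 CPM in injured MSC (change 1.93, adjusted p = 1.34e-04).

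**Figure D5:**
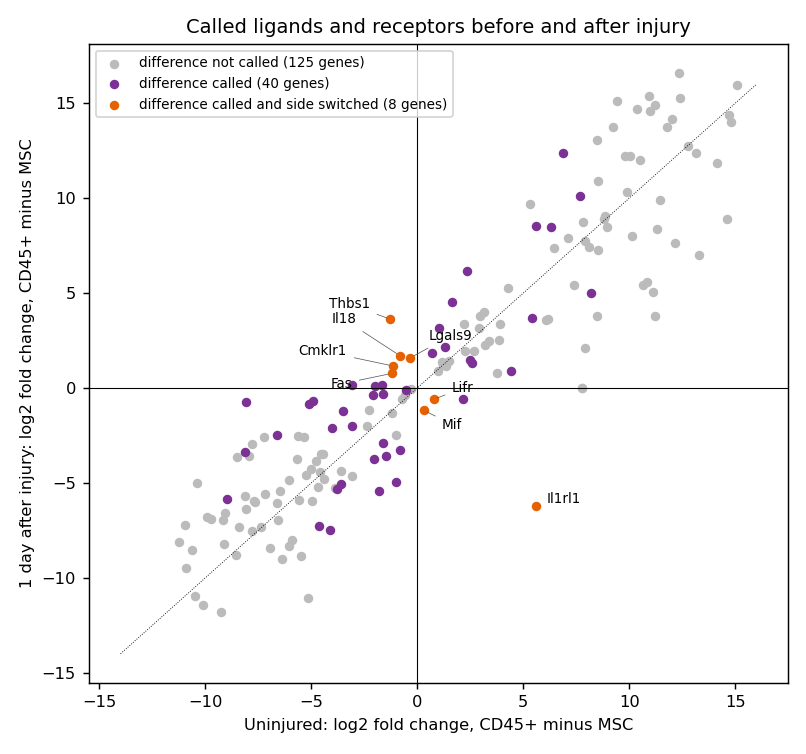
Log2 fold change, CD45+ minus MSC, in uninjured muscle (x axis) against 1 day after cardiotoxin (y axis) for 173 pair genes called in uninjured muscle, marked by whether the difference changed between the conditions. Il1rl1 and Thbs1 are among the 8 genes in the quadrants where the side turned over, and the dotted line marks equal differences in both conditions.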

How the data were processed

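The authors deposited whole-number read counts per gene symbol, with no normalization, for 52997 symbols in 24 libraries. Named in the submitters' processing notes, without a role for each, are featureCounts, STAR 2.5.4 and the build mm10. The annotation behind the symbols and the counting settings were not given in the sources used here. Per the labels' protocols, RNA was primed with oligo(dT), amplified by PCR and sequenced as paired reads of 25 bases with no strand mark or molecular identifier, so genes that overlap on opposite strands share reads and intervals cover counting error only.

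From these counts, edgeR 4.0.16 (R 4.3.3, limma 3.58.1) fitted 1 mean per group to all 24 libraries after its low-count filter (16263 genes) and TMM scaling. Robust quasi-likelihood tests were adjusted by Benjamini-Hochberg within each contrast, and SE are the fold change over the square root of F. The contrast of both uninjured populations, the same contrast after injury, their difference and contrasts with CD31+ cells and MuSC were tested. On simulated data with 200 changed genes among 15032, 63 of 100 changes of 2-fold and 99 of 100 of 4-fold were recovered with 7 false calls. The changed genes were drawn from those above a minimum expected count. They were a far smaller share than the 56.8% of genes called in the data, so the adjustment was stricter there than in the real contrast.

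The members, pairs and lists were chosen with earlier results of these data known. Named genes were those of counted pairs with at least 20 CPM, the 12 largest folds per side (at least 100 CPM, no overlap), up to 5 members of each of 37 lists by smallest adjusted p with those against their list's direction, and the sort gate genes. Gene positions are from GENCODE vM21 (GRCm38). DESeq2 1.42.0, other scalings, filters, sample sets, a replicate block and fits without each library served as alternatives, those on the TMM reference being chosen after seeing the data.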

Additional observations from a re-analysis of the deposited data

Results flagged for a closer look

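For 8 pair genes the population with the higher level differed between uninjured muscle and muscle 1 day after cardiotoxin, each side being called and the change itself passing edgeR's quasi-likelihood test. The changes below are in the log2 difference of CD45+ minus MSC, injured minus uninjured, and 25.1% of all tested genes had a called change. That share covers changes of any kind. The share of all tested genes that turned over their side was not counted, so the 8 genes are a description. Il1rl1 (ST2) moved by -11.81 (SE 1.63, adjusted p = 6.95e-05), from the immune to the stromal side. Lifr moved by -1.38 and Mif by -1.50 in the same direction (adjusted p = 0.00150 and 5.31e-07). Thbs1 moved by 4.91, Il18 by 2.53, Cmklr1 by 2.33, Fas by 1.97 and Lgals9 by 1.91 toward the immune side, with adjusted p of 1.27e-06, 2.46e-05, 1.59e-04, 0.00116 and 9.14e-09.

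Il18, a cytokine of the interleukin 1 family, stood at 45.4 ± 5.52 CPM in uninjured CD45+ cells and 80.7 ± 20.1 CPM in uninjured MSC. After injury it stood at 39.2 ± 7.22 CPM in CD45+ cells and lower in MSC. Its uninjured call was lost without CD45+ replicate 3 (adjusted p = 0.116), MSC replicate 1 (0.160) or MSC replicate 2 (0.147), fits in which edgeR also took another TMM reference, and was retained with the reference kept (0.0407, 0.0482 and 0.0415). Cmklr1, the chemerin receptor, stood at 45.9 ± 16.6 CPM and 103 ± 31.1 CPM in the uninjured populations and at 79.0 ± 3.05 CPM and 35.5 ± 8.80 CPM in the injured ones, and its uninjured call was lost without MSC replicate 3 with the changed reference (adjusted p = 0.0536) and retained with the reference kept (0.0179). The uninjured calls of Mif and Lgals9 were lost in several settings, and the adjusted p of Thbs1 without MSC replicate 3 was 0.102 with the changed reference and 0.0475 with the reference kept. Groups of 3 libraries were too small for a check of single outlying libraries.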

How the results depend on the processing

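No result reversed its direction in any of the 19 alternative fits. A minimum of 20 CPM left 18 pairs with both genes higher in MSC. A fold change of at least 4 left 19 such pairs, 12 stromal-to-immune pairs and 8 immune-to-stromal pairs, by its stricter construction. Leaving out each replicate in turn gave 4294 to 5274 genes higher in CD45+ cells, 3751 to 4424 higher in MSC, 15 to 21 stromal-to-immune pairs, 10 to 14 immune-to-stromal pairs, 15 to 18 pairs on the immune side and 26 to 32 on the stromal side. With the TMM reference library kept, an alternative chosen after seeing the data, these ranges were 4229 to 4375, 4324 to 4446, 16 to 21, 10 to 14, 15 to 17 and 28 to 32. Without CD45+ replicate 3 or any MSC library edgeR took another TMM reference, an injured MSC library, which moved the median log2 difference of all genes to between 0.18 and 0.26. DESeq2 called 4623 and 4693 genes, and the 6 libraries alone 3951 and 3854. With the replicate number as a block, 4525 and 4591 genes, 20, 14, 17 and 32 pairs in the same order were found, all 19 and 14 crossing pairs were among them, and Retn (adjusted p = 0.0555) alone of the named genes lost its call. Whether the numbers pair the libraries was not settled. Deviations of same-numbered libraries correlated at 0.032, 0.005 and 0.044, and those of libraries with unlike numbers at -0.037 to 0.010. CD45+ replicate 2 did not correlate best with its own number, but correlations this small between unlike cell populations cannot exclude a shared animal. Of 322 named genes 20 lost a call in some fit and 3 (Ccl2, Kitl and Flt3l) gained one. Depth limits low genes: 3 counts over a group equal 0.269 CPM in CD45+ cells and 0.201 CPM in MSC. The simulation, which recovered 63 of 100 changes of 2-fold, changed only genes above a minimum expected count and so does not cover low genes.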
